A study of Mus musculus with 24 samples.

Results

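In female mouse embryonic stem cells that carry a mus and a cas allele, as the deposited allele table names the copies of the 2 mouse strains, on part of the genome, reads of the mus and cas alleles were compared within each of 12 RNA libraries for 3155 genes of chromosomes 5, 7, 9 and 13. Genes were taken from an allele table of 24016 genes. Of these, 5766 lie on the 4 chromosomes, and the 3155 compared here had at least 120 reads that could be assigned to an allele (allelic reads), summed over the 12 libraries. There were 874 such genes on chromosome 5, 1010 on chromosome 7, 759 on chromosome 9 and 512 on chromosome 13. The measure used throughout is the mus share, the mus reads as a percent of the mus and cas reads of a gene, so that 50% means equal reading of both alleles.

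The cells were of the female line 16.7 Tsix +/TST (parental, WT) and of a line made from it by deleting G9a, the histone H3K9 methyltransferase encoded by Ehmt2 (knockout, KO). Each was taken before differentiation (day 0) and on day 10, after LIF withdrawal with 4 days in suspension and 6 days on gelatinized plates, with 3 total RNA libraries in each of the 4 groups. All groups carry the Tsix +/TST genotype. The labels do not say whether the KO is 1 clone, nor whether libraries of a group came from separate cultures, so p-values measure only the spread between these libraries. The acetyl mark H3K9ac, found at promoters in use, was followed in 1 ChIP sample per group, and the alleles were not separated there.

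When an F1-type hybrid cell reads its 2 alleles unequally, both copies share the same nucleus and the same transcription factors, and a difference between them arises in cis or from the history of the copy. Counted shares also depend on how reads were assigned to an allele and on any reads of other cells. Neither part was tested here. Strain differences in promoters, enhancers and transcript stability favour one allele by degree. Imprinted genes are read from the maternal or the paternal copy only, through marks set in the germ line, and a chromosome stretch that has lost or never had one strain's copy is read from the other strain alone.

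The sequences in this paragraph belong to the stretch at the proximal end of chromosome 7, where reading passed from the mus allele alone to both alleles between neighbouring genes. Near its start lies the miR-290 cluster, the miRNAs best known from embryonic stem cells. Of 10 miRNA genes among the members 9 matched RefSeq, and 3 of the cluster had no cas read in any library. Mature sequences are from RefSeq (GRCm38.p6), 5′ to 3′, with the seed (bases 2 to 8) in capitals. No pair of the 3 shares the whole seed.

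mmu-miR-291b-3p: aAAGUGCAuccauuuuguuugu

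mmu-miR-295-3p: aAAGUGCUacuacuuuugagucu

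mmu-miR-293-3p: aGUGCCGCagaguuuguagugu

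Over the Mir291b hairpin (mm9 chromosome 7, 3219483 to 3219561) 186 mus and 0 cas reads were counted, over Mir293 (3220344 to 3220423) 349 and 0, and over Mir295 (3220774 to 3220842) 134 and 0. A count of 0 allows a cas share of up to 1.61, 0.860 and 2.24% (3 reads of each total, counting error only). D7Ertd143e, a transcript whose span (3218785 to 3221016) covers all 3 hairpins, was 91.7% mus over 5216 reads, so cas reads were counted in this interval outside the hairpins. Reads over a hairpin in total RNA do not measure the mature miRNA. Mir293 was read 6, 8 and 169 times in the WT libraries of day 0, 6, 75 and 69 times in KO at day 0, 0, 4 and 5 times in WT at day 10, and 1, 4 and 2 times in KO at day 10, each time from mus. The high values were those of the 3 deepest libraries.

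The stretch ends between Trim28, the corepressor of KRAB zinc finger proteins, and Chmp2a, a subunit of the ESCRT-III membrane scission complex. Their promoters (the 250 bases before the start, RefSeq GRCm38.p6, read 5′ to 3′ on the gene's strand) are shown because the switch falls between these genes. Peg3, an imprinted zinc finger gene inside the stretch, is shown beside them. Capitals mark CG, the dinucleotide that carries DNA methylation, which reads the same on both strands. The reference sequence is that of neither allele.

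Trim28 (GRCm38.p6 chr7:13023902-13024151, plus strand): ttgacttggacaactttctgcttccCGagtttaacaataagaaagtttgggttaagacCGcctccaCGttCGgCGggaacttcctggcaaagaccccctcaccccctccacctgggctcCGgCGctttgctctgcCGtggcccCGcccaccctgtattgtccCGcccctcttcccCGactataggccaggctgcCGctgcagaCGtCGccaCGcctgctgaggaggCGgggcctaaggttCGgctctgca

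Chmp2a (GRCm38.p6 chr7:13034778-13035027, minus strand): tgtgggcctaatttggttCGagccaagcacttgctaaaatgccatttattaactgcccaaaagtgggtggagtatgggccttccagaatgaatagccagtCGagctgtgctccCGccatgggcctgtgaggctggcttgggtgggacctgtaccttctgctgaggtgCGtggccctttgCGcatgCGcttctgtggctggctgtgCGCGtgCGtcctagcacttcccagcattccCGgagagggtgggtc

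Peg3 (GRCm38.p6 chr7:6730420-6730669, minus strand): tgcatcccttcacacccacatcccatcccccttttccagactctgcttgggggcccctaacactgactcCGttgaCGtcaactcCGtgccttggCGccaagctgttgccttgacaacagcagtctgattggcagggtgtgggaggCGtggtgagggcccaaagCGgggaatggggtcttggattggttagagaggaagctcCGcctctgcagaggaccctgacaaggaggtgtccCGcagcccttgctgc

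The Trim28 promoter holds 17 CG, the Chmp2a promoter 10 and the Peg3 promoter 8. Of 32851 RefSeq promoters of the same length, 23.5% hold at least as many as Trim28, 37.8% at least as many as Chmp2a and 43% at least as many as Peg3. At the Trim28 promoter the authors listed an H3K9ac peak at day 10 only, with fold enrichment 5.63 in WT and 5.10 in KO. At the Peg3 promoter peaks were listed in KO at day 0 (4.24), WT at day 10 (3.86) and KO at day 10 (5.45), and none in WT at day 0. These samples had no replicates.

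Reading of both alleles filled the interior of chromosomes 5, 7 and 9 and the whole of chromosome 13, while 6 chromosome ends were read from mus alone. The ends were delimited after the shares had been seen, so their shares describe the choice and carry no test. They hold 461 members (14.6%), and the remaining 2694 (85.4%) are called members of the biallelic regions here, 677 on chromosome 5, 825 on chromosome 7, 680 on chromosome 9 and 512 on chromosome 13. In mm9 coordinates the proximal end of chromosome 5 began at 3344312 with Cdk6 (183 members, mus share of summed reads 96.3%). The distal end of chromosome 5 ran from 149996136 to 152453783 (Uspl1 to Rfc3, 2.46 Mb, 14 members, 99.3%).

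On chromosome 7 the proximal end ran from 3154660 to 13616381 (AU018091 to Trim28, 10.5 Mb, 80 members, 94.7%) and the distal end from 139234493 to 152469832 (Cpxm2 to Tpcn2, 13.2 Mb, 105 members, 96.7%). On chromosome 9 the proximal end ran from 3335231 to 16182675 (Alkbh8 to Fat3, 12.8 Mb, 42 members, 97.1%) and the distal end from 119804013 to 123761020 (Wdr48 to Fyco1, 3.96 Mb, 37 members, 98%). Both lines showed the same ends. The proximal end of chromosome 5 was 96.2% mus in the WT and 96.3% in the KO libraries, the proximal end of chromosome 7 was 94.8 and 94.6%, and the distal end of chromosome 9 was 98.1 and 98%.

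**Figure D1:**
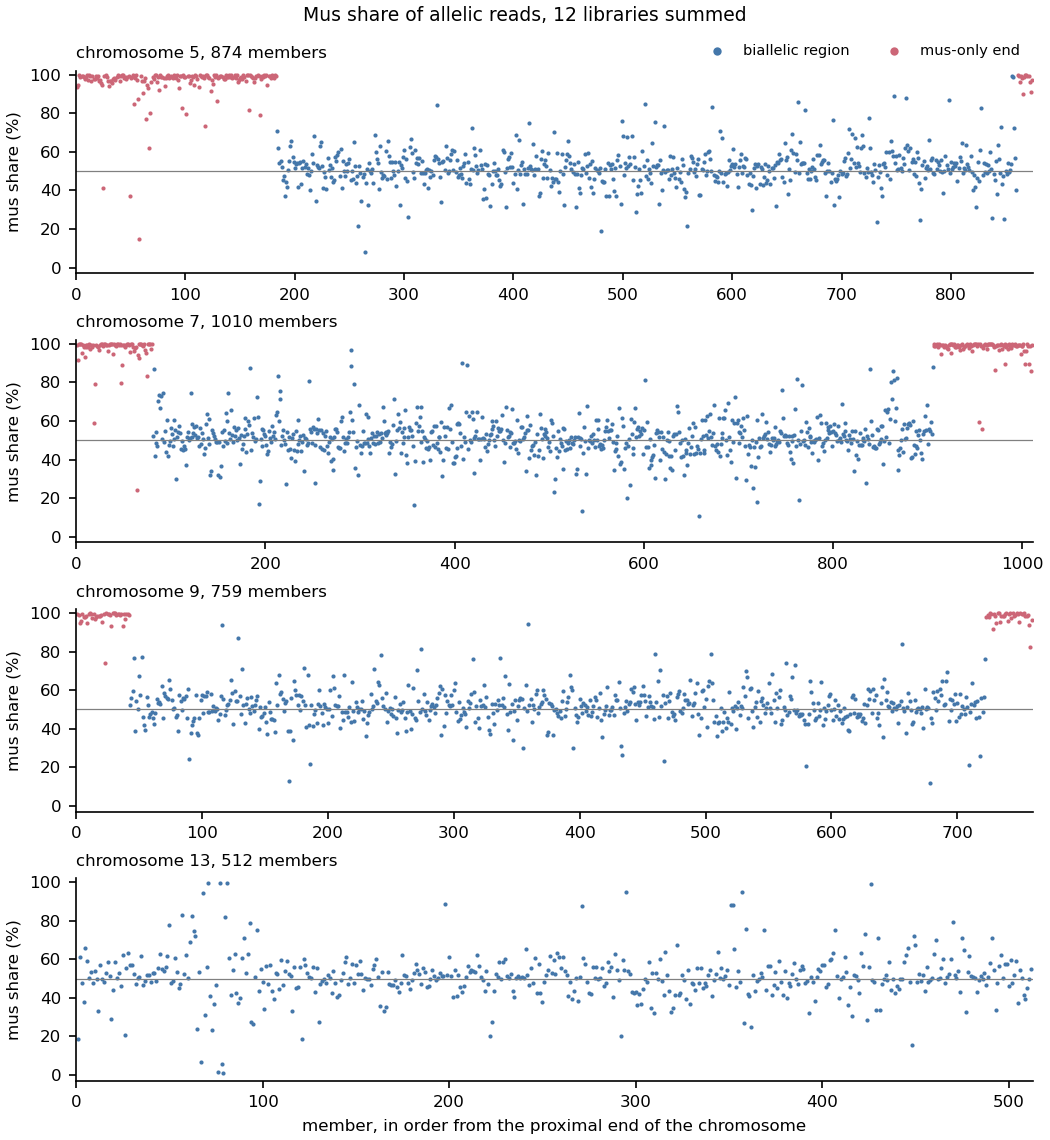
Mus share of allelic reads (%), summed over the 12 libraries, for each member in its order along chromosomes 5, 7, 9 and 13 (1 point a gene). Red points are the 461 members of the mus-only ends, blue points the 2694 members of the biallelic regions, and the grey line marks 50%.

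The level of cas reads in the ends can be set beside chromosomes that carried almost no cas reads. On 11 other chromosomes more than 93% of allelic reads were mus, and the cas share there was 2.32 to 6.00%. In the ends the cas share was 2.15 to 3.96% across the 12 libraries. The range of the chromosomes is over summed libraries and that of the ends over single libraries, so the 2 are unlike. In single libraries the mus share reached 98.2% on chromosome 19 and 98.1% on chromosome 18. The lowest cas share of the ends was in WT day 10 replicate 3. Over summed libraries the distal end of chromosome 5 (99.3% mus) had a lower cas share than any of those chromosomes.

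The switch on proximal chromosome 7 fell between 2 neighbouring members, though cas reads did not stay even past it. Trim28 (mm9 13609501 to 13616381) was 99.6% mus over 25310 reads, with 99.6, 100 and 99.6% in the WT libraries of day 0, 99.0, 99.7 and 99.6% in KO at day 0, 99.1, 99.4 and 99.0% in WT at day 10, and 99.1, 100 and 100% in KO at day 10. Chmp2a lies on the other strand, its near (3′) end is 0.974 kb further on, and it was 51.9% mus over 466 reads. The next members were Ube2m, the NEDD8-conjugating enzyme, at 86.7% (850 reads), Mzf1 at 41.8% (177 reads) and Lig1, a DNA ligase of replication, at 48.7% (9586 reads).

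On proximal chromosome 5 the share came down over several genes. After the mus-only end Afap1 was 70.8% mus, Sorcs2 was 61.7% and Grpel1 was 54.1%. On distal chromosome 5 mus-only and biallelic genes alternated before the end began. Slc7a1, an arginine transporter, was 53.6% mus, and the next members Ubl3 and Katnal1 were 99.5 and 98.7%. Hmgb1 was then 72.1%, 5730422E09Rik was 57.0% and Gm8615 was 40.3%, before Uspl1 at 99.8% opened the end. On distal chromosome 7 the gap to the next member after Bub3 was 519 kb, and on proximal chromosome 9 Fat3 and Chordc1 lay 1914 kb apart. On distal chromosome 9 Scn10a (75.9%, 166 reads) and Wdr48 (97.7%, 4272 reads) lay 176 kb apart, so the switch is placed only within those gaps.

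Within the ends 59 members were below 95% mus. The proteasome subunit Psmd13 was 59.5% mus over 2108 reads, Tomm7, a small subunit of the mitochondrial import pore, was 62.0% over 1594 reads and Ifitm3 was 55.7% over 323 reads. The ribosomal protein gene Rps9 (79.0%, 18694 reads) also had cas reads. Abcb4, a phospholipid transporter of bile, was 41.1% mus (1999 reads) and Vmn2r29, a vomeronasal receptor gene, 24.2% (302 reads). Ribosomal protein and vomeronasal receptor genes have near-identical copies elsewhere, and how the authors placed reads with several positions is not given in the sources used here, so these shares are uncertain.

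Members read at 95% or more from 1 allele were counted as one-allele genes. There were 411, of which 409 were mus and 2 cas; 402 lay in the ends and 9 in the biallelic regions. Runs of at least 5 consecutive one-allele members numbered 31, held 348 members and were all mus. The ends were drawn to reach the innermost of these runs. That all runs lie in the ends was therefore set by the choice and is not a finding. No run was cas. With the libraries of each line apart there were 30 runs in WT and 33 in KO.

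The one-allele mus genes with the most reads were Trim28, Mki67, the proliferation marker Ki-67 (95.4%, 18537 reads), H19, Brca2, the homologous recombination factor (99.7%, 14315 reads), Peg3, Cad, the first enzyme of pyrimidine synthesis (98.9%, 12197 reads), Dbf4, the activator of the replication kinase Cdc7 (99.1%, 11419 reads), Ctnnb1, β-catenin (99.7%, 11113 reads), Lincenc1 and Yes1, a Src family kinase (96.1%, 8056 reads). All of these but Lincenc1 lay in the ends. The highest fitted ratios over all members also came from the ends. They were those of H19, Tmem123, Ctsd, Cd81, Cd151, Exosc7, Cldn12, Peg3, Rpl14 and Tollip.

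The best known imprinted cluster of the mouse, on distal chromosome 7, fell into a mus-only end. H19, a maternally expressed long noncoding RNA of mesoderm and endoderm (mm9 149761437 to 149764051), was read 19, 17 and 105 times in WT at day 0, 11, 243 and 188 times in KO at day 0, 3113, 2821 and 1570 times in WT at day 10, and 1602, 3096 and 3330 times in KO at day 10. All but 3 of its 16115 reads were mus, and those 3 were in KO at day 10. The reads at day 10 were higher than at day 0 in every library although the day 0 libraries included the deepest.

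Igf2, a growth factor read from the paternal copy, had 231 mus reads and 1 cas read, and Kcnq1ot1, the paternally read antisense RNA that silences its neighbours, had 5077 and 35. The maternally read genes of the same cluster were also mus: Cd81 had 5158 mus and 4 cas reads, Cars 4659 and 34, Nap1l4 3422 and 28, Dhcr7 1800 and 6, Tssc4 652 and 6, Kcnq1 465 and 5, Osbpl5 262 and 3, and Tnfrsf22 554 and 32. Genes known for reading from opposite parents were both mus here, as were their neighbours that are not imprinted. Within this end cas reads were few whichever parent's copy a gene is known for. Whether a given gene was imprinted in these cells therefore cannot be judged from its share. The direction of the cross is not given in the sources used here.

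The same held at proximal chromosome 7. Peg3, read from the paternal copy, had 12596 mus and 14 cas reads, its neighbour Usp29 had 1487 and 23, and Zim1, known as maternally read, had 331 and 1. Ascl2, Cdkn1c and Phlda2 of the distal cluster were under 120 reads (108, 50 and 34).

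The Prader-Willi and Angelman region of central chromosome 7 lies in a biallelic region, so its alleles could be compared. In the mouse its paternal copy alone is known to read Snrpn, Ndn, Peg12, Magel2 and Mkrn3. Snrpn, which encodes a core protein of spliceosomal particles (mm9 67127388 to 67285105), was read from both alleles in every library. Its mus share was 62.8, 61.1 and 57.2% in WT at day 0, 62.1, 50.5 and 51.1% in KO at day 0, 65.9, 73.0 and 61.4% in WT at day 10, and 63.1, 70.6 and 66.7% in KO at day 10.

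Snrpn was above 50% in all 12 libraries and nearest to 50% in the 2 deep KO libraries of day 0. Over all libraries it had 2815 mus and 2146 cas reads (56.7%), and its log2 mus/cas ratio averaged over the 4 groups was 0.71 ± 0.14 (SE, edgeR quasi-likelihood test, adjusted p = 3.3e-05, n = 12 libraries). It did not pass the test when the ratio was tested against a log2 of 0.58 (adjusted p = 0.087) or with library sizes taken per allele over the 4 chromosomes (adjusted p = 0.077). Snurf, at 56.9%, shares its span and reads with Snrpn.

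Ndn was 53.7% mus over 134 reads and Peg12, with 114 mus and 219 cas reads, was 34.2%, and neither passed the test. Magel2 (19 mus and 14 cas reads) and Mkrn3 (25 and 30) were under the minimum. Ube3a, a ubiquitin ligase imprinted in neurons, was 50.3% (1156 and 1142 reads). Atp10a, a flippase, was higher from cas (43.5%, log2 −0.46 ± 0.16, edgeR adjusted p = 0.010). Thus 3 of the 7 members of this region were called mus, among them the overlapping Snrpn and Snurf, and 1 cas, beside 626 of all 2694 biallelic members called (23.2%). None was read from 1 allele. Other genes imprinted in some tissues, Inpp5f (46.1%), Ampd3 (46.8%) and Rasgrf1 (46.4%), did not pass the test.

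In the biallelic regions most genes were read about equally from both alleles. The median mus share of the 2694 members was 51.1% (quartiles 46.9 and 55.7%), and 2121 members (78.7%) lay between 40 and 60%. Above 60% were 354 members and below 40% were 219, of which 46 were at or above 80% and 17 at or below 20%. Over summed reads the mus share of a library was 50.4 to 53.4%, highest in WT day 0 replicate 1 (53.4%) and KO day 0 replicate 1 (52.4%).

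Averaged over libraries, the biallelic regions were 51.7% mus on chromosome 5, 51.4% on chromosome 7, 50.1% on chromosome 9 and 51.7% on chromosome 13. Between lines and between days these shares differed by −1.81 to 0.665 percentage points in 16 comparisons. In 6 of the 16 the groups did not overlap, which gives the smallest p that an exact 2-sided permutation test of 3 against 3 can reach (0.1).

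**Figure D2:**
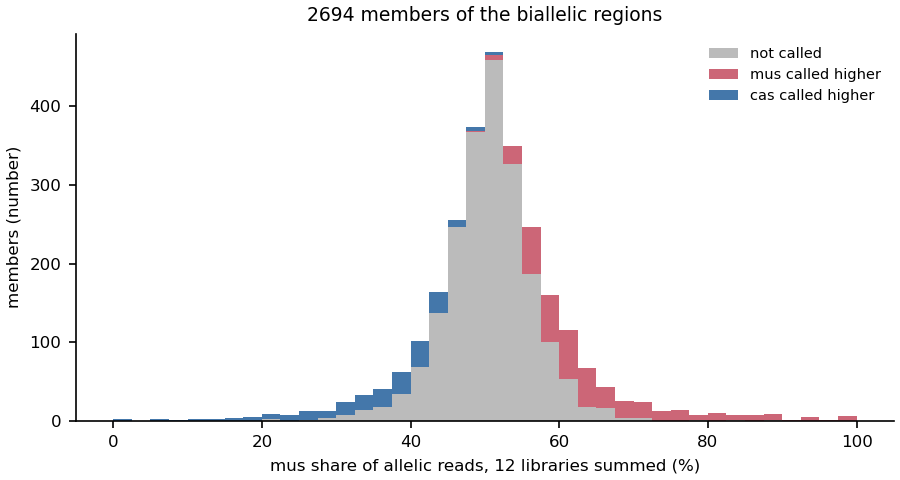
Number of members by mus share of allelic reads (%), summed over the 12 libraries, for the 2694 members of the biallelic regions. Red and blue parts of the bars are members called higher from mus (409) and from cas (217) on the mean of the 4 groups, and grey parts are members not called; most grey members lie between 40 and 60%.

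Each allele ratio was tested with edgeR over the 13350 genes of the table with at least 120 allelic reads, with Benjamini-Hochberg adjustment at 0.05. In WT at day 0, 281 biallelic members differed between alleles (193 mus, 88 cas). Of all genes tested 69.6% were called, 66.4% mus and 3.2% cas, since most chromosomes are nearly all mus. In KO at day 0 there were 313 (203 mus, 110 cas), beside 70.8% of all genes (66.9% mus, 3.86% cas). In WT at day 10 there were 188 (125 mus, 63 cas), beside 68.9% (64.2% mus, 4.67% cas), and in KO at day 10 there were 256 (156 mus, 100 cas), beside 63.1% (58.7% mus, 4.41% cas). On the mean of the 4 groups 626 of 2694 (23.2%) were called, 409 mus and 217 cas, against 75.2% of all genes (67.9% mus, 7.27% cas). KO day 0 replicates 2 and 3 were much alike in reads per gene. Their chi-square per gene was 2.26, against 50.2 and 47.1 between each of them and replicate 1. For the split between alleles it was 1.91, against 2.77 and 2.80. With replicates 2 and 3 summed as 1 library, 150 biallelic members were called in KO at day 0. The labels do not say whether these libraries came from separate cultures.

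With a library size for each allele, taken over the biallelic members, the mean of the 4 groups gave 336 mus and 272 cas calls; this scaling shifts log2 ratios by 0.02 to 0.20. With sizes taken over all 4 chromosomes, the mus-only ends included, the shift is 0.40 to 0.56 and the split was 132 mus and 1054 cas. The balance of mus and cas calls thus changed with the scaling, while the mus shares do not use it. In the mus-only ends 450 of 461 members were called on the mean of the 4 groups, a count set by how the ends were chosen.

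The groups shared calls. Of the 281 called in WT at day 0, 193 (68.7%) were also called in KO at day 0, all in the same direction, which is 61.7% of the KO calls. Between WT and KO at day 10 the 103 shared calls were 54.8% of the WT and 40.2% of the KO calls. Across days in WT, the 93 shared calls were 33.1% of those of day 0 and 49.5% of those of day 10. All shared calls had 1 direction. Called in all 4 groups were 69 biallelic members, 50 mus and 19 cas, and 585 were called in at least 1.

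The share called was higher at greater depth. Of members with 120 to 500 reads 16.6% were called, of those with 500 to 2000 reads 23.3%, of those with 2000 to 10000 reads 27.8%, and of the 74 with 10000 or more 39.2%. A member of median depth had 17 to 37 reads in 9 of the libraries, where an even share has a 95% Wilson interval as wide as 26.2 to 69.0%, and 211 to 318 reads in the other 3, where it is 43.1 to 56.5% or narrower.

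Lincenc1, a long noncoding RNA of embryonic stem cells (mm9 chromosome 13, 98204925 to 98267619), was the most deeply read one-allele gene away from the ends. Its mus share was 98.5, 95.2 and 99.3% in WT at day 0, 92.6, 99.5 and 99.4% in KO at day 0, 100, 95.7 and 73.5% in WT at day 10, and 95.4, 98.5 and 95.8% in KO at day 10. Every library was mus, with 1 WT library of day 10 (68 reads) below the others. Over 10973 reads the share was 99.0%, and the log2 ratio was 5.22 ± 0.32 (edgeR adjusted p = 4.2e-15).

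Ubl3, a ubiquitin-like protein that anchors at membranes, was 100, 100 and 100% mus in WT at day 0, 98.5, 99.5 and 99.7% in KO at day 0, 100, 98.9 and 95.8% in WT at day 10, and 100, 100 and 98.6% in KO at day 10 (1846 reads, log2 7.76 ± 0.33). Katnal1, a microtubule-severing subunit that follows it on distal chromosome 5, was 98.7% mus over 672 reads. Nphs1, the nephrin gene of the kidney filter, was 96.7% mus over 1131 reads (log2 5.23 ± 0.46) and overlaps another gene of the table. Uqcrb, a subunit of respiratory complex III, was 94.9% over 2921 reads (log2 4.28 ± 0.29).

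Ftl1, the ferritin light chain that stores iron, was 96.8, 95 and 86.2% mus in WT at day 0, 95.2, 83.7 and 83.5% in KO at day 0, 97.5, 92.5 and 94.5% in WT at day 10, and 96.0, 95.9 and 95.6% in KO at day 10. Its 3 lowest values were those of the 3 deepest libraries. Its log2 ratio was 3.84 ± 0.19. Actb, cytoplasmic actin, was 83.0 to 95.3% mus across the libraries (86.8% over 4665 reads, log2 3.36 ± 0.17), and its lowest 3 values were in the same libraries.

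Bub3, a spindle checkpoint protein and the last member before the distal end of chromosome 7, was 88.1% mus over 3690 reads (78.9 to 97.1%, log2 3.08 ± 0.21). Rplp0, a stalk protein of the large ribosomal subunit, was 84.7% over 12453 reads (80.3 to 88.4%, log2 2.45 ± 0.13). Ferritin, actin and ribosomal protein genes have processed copies elsewhere in the mouse genome, so their shares carry the uncertainty given above. Whether other named genes have such copies, among them Hspa8, Eef1a1 and Dynll1, was not checked.

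Among cas-high members, Hspa8, the constitutive heat shock chaperone Hsc70, was 10.6, 11.9 and 11.0% mus in WT at day 0, 12.5, 17.1 and 13.1% in KO at day 0, 6.10, 9.63 and 27.9% in WT at day 10, and 1.23, 5.16 and 0.901% in KO at day 10. All 12 libraries were below 50%, and the KO libraries of day 10 were the lowest. Its log2 ratio was −3.39 ± 0.20 (edgeR adjusted p = 2.6e-15, 8405 reads).

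Rpl4, a protein of the large ribosomal subunit and the most deeply read of these (47709 reads), was 34.7, 32.4 and 30.5% mus in WT at day 0, 29.1, 29.7 and 27.3% in KO at day 0, 33.3, 33.5 and 29.6% in WT at day 10, and 28.2, 31.8 and 30.7% in KO at day 10. At day 0 every KO library was below every WT library, at day 10 the lines overlapped, and the log2 ratio was −1.16 ± 0.10 (edgeR adjusted p = 3.3e-12). Pkm, the glycolytic pyruvate kinase, was 32.4 to 41.4% mus over 43427 reads (log2 −0.74 ± 0.09).

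Ssh1, the cofilin phosphatase slingshot, was 15.1 to 23.3% mus in the day 0 libraries and 17.5 to 38.4% in those of day 10 (3644 reads, log2 −1.75 ± 0.16). Mcam, the adhesion molecule CD146, was 9.09 to 35% (log2 −1.87 ± 0.19). Pebp1, an inhibitor of Raf kinase signalling, was 10.9 to 40.9% (log2 −1.42 ± 0.18), and Slc1a5, a glutamine transporter, was 26.4 to 43.9% (log2 −1.05 ± 0.14). Eef1a1, the elongation factor that brings tRNA to the ribosome, was 18.6 to 37.3% (log2 −1.29 ± 0.14), Pde4d, a cAMP phosphodiesterase, was 25.6 to 43.3% (log2 −1.02 ± 0.13), and Picalm, a clathrin adaptor, was 26.4 to 45.5% (log2 −0.85 ± 0.14). No library of these 7 genes reached 50%. Rps27l, a p53-responsive ribosomal protein paralog, was 29.9% mus.

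**Figure D3:**
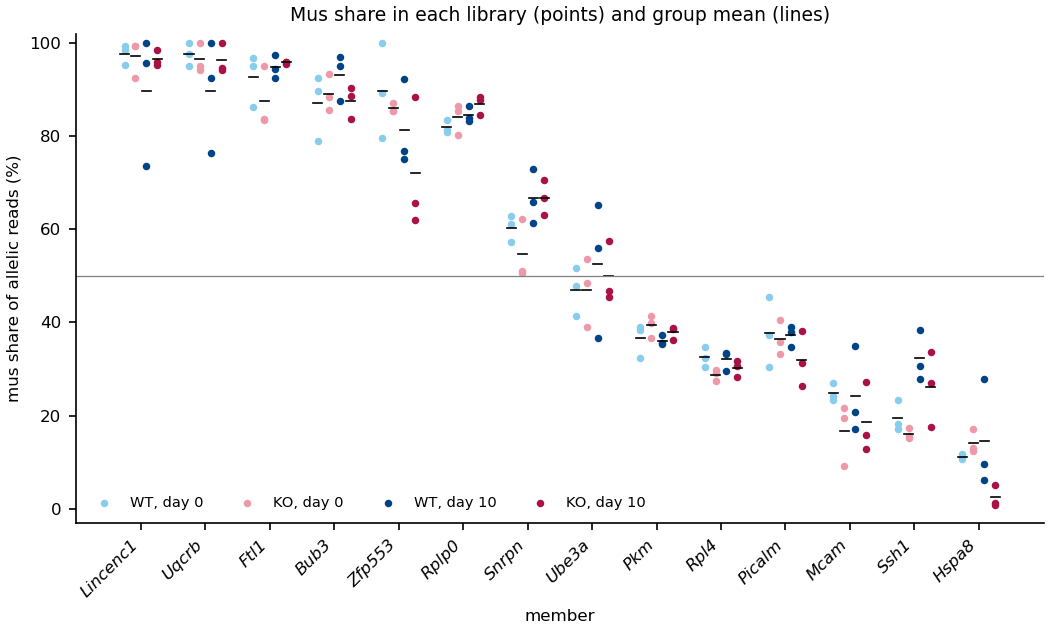
Mus share of allelic reads (%) of 14 members of the biallelic regions in each library (points, coloured by line and day) with the group mean (short lines) and 50% (grey line). Lincenc1 to Rplp0 stay above 50% in every library and Pkm to Hspa8 below it, while Snrpn lies between 50.5 and 73.0% and Ube3a on both sides.

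The histone cluster of chromosome 13 held high values of both directions side by side. Its 38 Hist1 members (mm9 21807582 to 24026782) encode core and linker histones. They ranged from 0.976 to 99.8% mus, with 17 called mus and 13 called cas, beside 626 of 2694 (23.2%) over all biallelic members. Their summed share was 51.4%. At or above 90% were 4 and at or below 10% were 4, and 11 lay between 40 and 60%.

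Hist1h4d, a gene of histone H4, was 99.3% mus over 1780 reads. Hist1h3f, of histone H3, was 99.8% over 423 reads, and Hist1h2ah was 99.7% over 308. Hist1h3i was 6.81% over 1058 reads, with 4.65, 0 and 11.3% in WT at day 0, 0, 9.80 and 16.8% in KO at day 0, 0, 3.26 and 0% in WT at day 10, and 1.61, 6.56 and 2.17% in KO at day 10. The only 2 one-allele cas members of all were also here, the linker histone gene Hist1h1d (0.976%, 205 reads) and Hist1h4h (1.40%, 143 reads). Hist1h1a, a linker histone read 21357 times, was 51.0%. Genes of this cluster are near-identical, so how reads were divided between neighbours is uncertain.

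**Figure D4:**
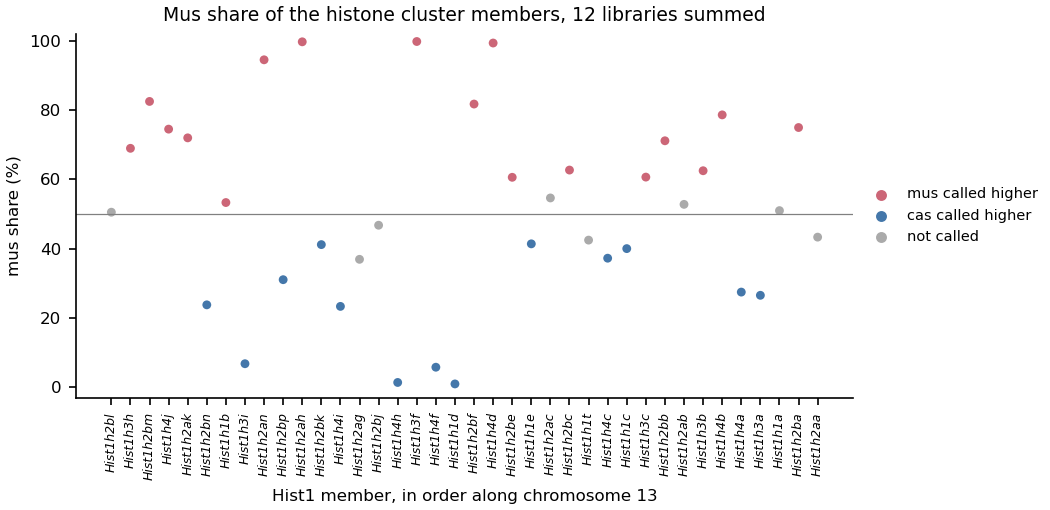
Mus share (%), 12 libraries summed, of the 38 Hist1 members in their order along chromosome 13. Red points were called higher from mus (17), blue points higher from cas (13) and grey points were not called; neighbours lie at opposite ends of the scale from 0.976 to 99.8%.

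The median share of 11 consecutive members left the range of 35 to 65% in 10 windows of the biallelic regions, 9 on chromosome 7 and 1 on chromosome 13, the latter centred on Hist1h1b. Of those 9, 1 was centred on Sult2a5 near the proximal end and 8 on the genes from Cd2bp2 to Sephs2. These 8 members span 82.4 kb (mm9 134335174 to 134417573), had a median share of 69.1% and ranged from 48.6 to 86.0%, and 6 were called mus and 0 cas, all but Cd2bp2 and Sept1.

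Cd2bp2, a splicing protein, was 48.6% mus, Tbc1d10b 61.0%, Mylpf, a fast muscle myosin light chain, 80.2%, Sept1 71.6%, Zfp553 86.0%, Zfp771 81.3%, Dctpp1, a nucleotide pyrophosphatase, 59.8%, and Sephs2, which makes selenophosphate, 66.6% (4804 reads). Zfp553 was above 50% in all 12 libraries (62.1 to 100%, log2 2.20 ± 0.22). Itgal, an integrin, follows at 82.3% and Zfp747 at 34.5%. This neighbourhood was singled out after its values were seen.

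Gene lists were described by their counts on the mean of the 4 groups, beside 626 of 2694 for all biallelic members. The lists were chosen with earlier results of these data known. Of 21 ribosomal protein genes 8 were called mus and 6 cas, with a median share of 51.4%. Rplp0, above, is an example of the first, and Rps3, of the small subunit, of the second (37.0%, log2 −0.52 ± 0.10). Of 111 zinc finger genes 16 were called mus and 6 cas, with a median of 50.6%. Zfp568, a KRAB repressor needed in the early embryo, was 40.5% over 17918 reads (log2 −0.32 ± 0.12, edgeR adjusted p = 0.014).

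Of 9 glycolytic and housekeeping genes 1 was called mus (Actb) and 2 cas, with a median of 50%. Ldha, lactate dehydrogenase, was 50% mus over 31290 reads, Pfkp 47.9% and Aldoa 46.0%, and none of the 3 passed the test. Of 7 pluripotency and epiblast genes Spp1 (osteopontin, 66.1%) and Dppa5a (64.6%) were called mus. Tdgf1, the Nodal coreceptor Cripto, was called cas (log2 −0.26 ± 0.11, edgeR adjusted p = 0.036) though its summed share was 51.1%, because the groups weigh equally in the test and WT day 0 replicate 3 held 16933 of its 41292 reads.

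Of 5 differentiation genes Tagln, a smooth muscle actin-binding protein, was called mus (64.1%) and Apoe, a lipid carrier, cas (33.9%, 3188 reads). Of 7 fibroblast marker genes 2 were called mus and 0 cas. Pluripotency genes Fgf4 (89.7%) and Utf1 (99.4%) lay in the mus-only end of distal chromosome 7.

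Some libraries stood apart from the rest. Day 0 libraries WT 3, KO 2 and KO 3 held 6321721 to 9107050 allelic reads, and the other 9 held 524541 to 1197676. Scaled reads of Ehmt2 (its place in the deleted part was not checked) were 986.77 to 1375.06 in WT and 375.39 to 557.31 in KO at day 0, and 718.57 to 1358.93 and 499.82 to 758.44 at day 10, where the ranges overlap. Replicate 1 of both day 0 groups had the most reads of 4 Y-linked genes (201.58 and 80.94 scaled reads, others 0 to 19.83). In these 2 libraries the summed level of 29 fibroblast markers was 38119.6 in WT and 20408.6 in KO, above the other day 0 libraries (11903.6 to 15717.2), and at day 10 it was 20444.8 to 44665.5. Of the 29, 0 to 3 were at 0 in a day 0 library and 0 to 6 in a day 10 library.

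The alleles of the 7 fibroblast marker genes among the members moved with those libraries. Their summed mus share was 90% in WT day 0 replicate 1 and 80.6% in KO day 0 replicate 1, and 50 to 68.9% in the other 10. Col12a1, a fibril-associated collagen, was 86.0 and 71.8% in these 2 libraries and 50.9 to 70.7% in the other day 0 libraries. Igfbp7, a secreted growth factor binding protein, did not follow this order, with 97.9% in WT replicate 1 but 75.4% in KO replicate 1, the lowest of the day 0 libraries. The part of such reads in the shares of other genes was not tested.

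The 3 deep day 0 libraries also differed in allele ratio from the 3 other day 0 libraries. This comparison was added after the data had been seen, and the groups of libraries were set by depth. The other day 0 libraries include replicate 1 of both lines, which had the most Y-linked and fibroblast reads of day 0. The part of such reads in this comparison was not tested. With edgeR, 30 of 3155 members were called (169 at an unadjusted p under 0.05), beside 398 of all 13350 genes tested (2.98%). Of the 30 members 12 had a higher and 18 a lower mus share in the deep libraries, and 13 were biallelic.

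Cdk8, the kinase of the Mediator complex, was 46.9, 46.1 and 50.5% mus in the deep libraries, 14.2, 9.81 and 19.2% in the other day 0 libraries, and 6.51 to 21.3% at day 10. The deep libraries do not overlap with any other (log2 difference 2.32 ± 0.30, edgeR adjusted p = 2.5e-11). Dynll1, a dynein light chain, was 23.5% mus in the deep, 81.6% in the other day 0 and 76.4% in the day 10 libraries (log2 difference −3.81 ± 0.54). Ttc28 was 21.2, 47.8 and 48.1% in the same order, and Ctbp2, a corepressor in the distal end of chromosome 7, was 90.9, 99.0 and 98.8%. For these 4 genes the day 10 value lay beside that of the shallower day 0 libraries. Other called members did not follow this order. Ran was 55.5% mus in the deep, 82.4% in the other day 0 and 60.1% in the day 10 libraries. Cyth3 was 44.1, 76.2 and 47.0% in the same order, and Prelid1 was 55.6, 86.0 and 72.4%.

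**Figure D5:**
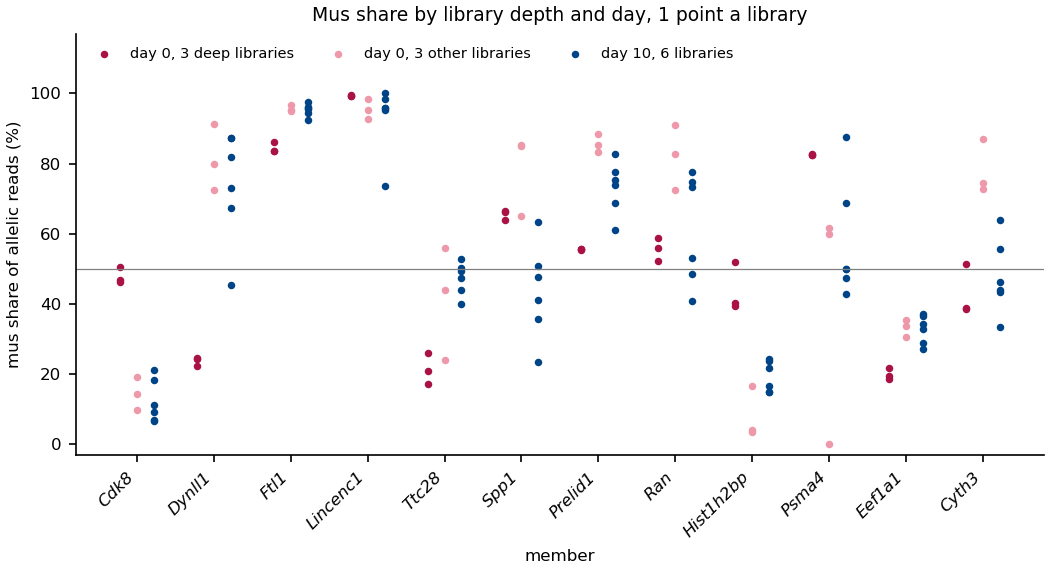
Mus share of allelic reads (%) of 12 of the 13 biallelic members called between the 3 deep and the 3 other day 0 libraries, with 1 point a library: 3 deep day 0 libraries (dark red), 3 other day 0 libraries (pink) and 6 day 10 libraries (blue). For Cdk8 and Ftl1 the day 10 points lie with the other day 0 libraries, and for Spp1 day 10 is the lowest set.

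Between KO and WT no member's allele ratio was called. At day 0 the count was 0 of 3155 with edgeR (23 at an unadjusted p under 0.05) and 0 with DESeq2. Of all genes tested 0% were called. At day 10 the count was 0 (113 unadjusted) and 0 with DESeq2, again with 0% of all genes. The 23 and 113 are 0.73 and 3.58% of members, fewer than a p threshold of 0.05 passes when nothing differs. The test was thus conservative, most of all at day 0, where a count of 0 says little about the lines. Data were simulated for the 2694 biallelic members with 1 common spread for every gene, and p-values were adjusted over those members only. There the test recovered 68% of 4-fold and 10.5% of 2-fold differences at day 0, and 37.5 and 6.5% at day 10. The test on the real data covered 13350 genes and fitted a spread to each, so these rates need not hold for it. Even in the simulated data, smaller differences between lines would mostly not have been called.

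At day 10 the 2 members with the lowest p and a lower mus share in KO were Crmp1 and Hspa8. Hspa8 was 6.10, 9.63 and 27.9% mus in the WT libraries, while the KO libraries had 1.23, 5.16 and 0.901%. Every KO library was below every WT library (log2 difference −2.32 ± 0.71, edgeR adjusted p = 0.91). Crmp1, a neuronal cytoskeletal protein, was 91.7, 80 and 77.8% in the WT libraries, while those of KO had 20, 42.6 and 52.4%, over 10 to 47 reads a library.

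The 2 with the lowest p and a higher mus share in KO had few reads. Cap2, an actin-binding protein, was 100, 65.5 and 63.2% in the WT libraries, while those of KO had 100, 100 and 100%, over 6 to 38 reads a library. Scn3b, a sodium channel subunit, was 25, 25 and 9.09% in the WT libraries, while those of KO had 100, 66.7 and 66.7%, over 4 to 12 reads. None of the 4 passed the adjusted test.

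At day 0 the lowest p-values between lines belonged to members of the ends, Fam193a, Dcun1d5, Leng8 and Agap3, at 88.4 to 100% mus in every library. Leng8, for example, was 100% in the 3 WT libraries and 100, 94.8 and 99.2% in the 3 KO libraries.

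Between days edgeR called no member, and DESeq2 called a few. In WT the count was 0 with edgeR (120 unadjusted) and 4 with DESeq2, beside 0.33% of all genes tested (0.015% with a higher and 0.315% with a lower mus share at day 10). In KO it was 0 (149 unadjusted) and 3 with DESeq2, beside 0.18% of all genes (0.0225 and 0.157%). The difference between the 2 changes was called for 0 members (78 unadjusted, 0 with DESeq2, 0% of all genes). The simulated test recovered 49% of 4-fold changes in WT, 42.5% in KO and 10.5% for the difference of the changes.

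Calls between days appeared when libraries were left out. Without replicate 1 of both day 0 groups 18 members were called in WT (7 with higher and 11 with lower mus share at day 10) and 27 in KO (12 and 15), beside 1.58 and 2.14% of all genes. Cdk8, Dynll1, Ttc28, Ctbp2 and Lincenc1 were called in both lines. The day 0 libraries that remain there are mostly the deep ones, so in these values day and depth cannot be told apart. Without the 3 deep libraries 2 members were called in WT and 3 in KO, and with depth class as a term in the test 4 and 6.

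Spp1 was called in both lines under either of those 2 alternatives. This secreted glycoprotein of matrix and blastocyst, was 85.4, 65 and 64.0% mus in WT at day 0, 85.0, 66.2 and 66.6% in KO at day 0, 23.3, 50.7 and 35.7% in WT at day 10, and 41.2, 47.6 and 63.3% in KO at day 10. The days did not overlap in either line, but the day 10 libraries held only 14 to 84 reads. With all libraries the change was −2.06 ± 0.57 in WT (edgeR adjusted p = 0.19) and −1.36 ± 0.52 in KO (edgeR adjusted p = 0.42).

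At day 0 Spp1 was highest in the 2 libraries with the most fibroblast and Y-linked reads. Without the deep libraries the day 0 groups consist of those 2 libraries and WT replicate 2, and the part of fibroblast reads was not tested.

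Hspa8 was called in KO without replicate 1 of the day 0 groups (log2 change −2.60 ± 0.55, edgeR adjusted p = 0.00052), and with all libraries its change in KO was −2.58 ± 0.63 (edgeR adjusted p = 0.090). Its deep day 0 libraries (11.0, 17.1 and 13.1%) and other day 0 libraries (10.6, 11.9 and 12.5%) lay close together. Cenph, a centromere protein, was 70.3, 69.8 and 74.0% mus in WT at day 0, 36.8, 51.3 and 43.2% in WT at day 10, 68.2, 79.2 and 81.4% in KO at day 0, and 66.7, 67.6 and 63.2% in KO at day 10. Its days did not overlap in either line, and its change was −1.72 ± 0.45 in WT (edgeR adjusted p = 0.13) and −0.88 ± 0.46 in KO (edgeR adjusted p = 0.66).

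Promoters with a listed H3K9ac peak within 1 kb were 6.91% of the 3155 members in WT at day 0, 15% in KO at day 0, 45.9% in WT at day 10 and 45.6% in KO at day 10. In WT at day 10 they were 49.9% of members in the ends, 43.3% of mus-high and 40% of cas-high biallelic members, and 46.2% of biallelic members not called. Of the 9 one-allele members in the biallelic regions, 0 had a peak at day 0 in either line and 2 in WT at day 10. With 1 sample a group these shares have no replicate check, and the peaks do not separate the alleles.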

How the data were processed

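RNA was extracted with RNeasy and depleted of ribosomal RNA with Ribo-Zero, per the labels. The submitters' processing notes name TopHat and HOMER, Novoalign and MACS2, and the build mm9, with no versions. The authors deposited allelic read counts per gene (mus and cas columns, not normalized), signal as reads scaled between libraries, and H3K9ac peaks with fold enrichment and −log10 q-values. How reads were assigned to an allele, strand use and multiply placed reads are not given in the sources used here. Counted length equalled genomic span in 3154 of the 3155 members, so introns are included.

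Counts were fitted with edgeR 4.0.16 (R 4.3.3, quasi-likelihood), with a term for each library and a mus term for each group, both alleles of a library sharing its size, over 13350 genes with at least 120 allelic reads and Benjamini-Hochberg adjustment at 0.05. DESeq2 1.42.0 was an alternative. The procedure was tested on simulated data. Depth was 524541 to 9107050 allelic reads a library, and intervals and floors cover counting error only.

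Named genes were the 10 highest and 10 lowest ratios called in each group and on 1 side of 50% in all 12 libraries, all imprinted members, the 10 one-allele genes with most reads on each side, the 5 highest and lowest of each difference or, with none called, the 2 lowest p in each direction, and up to 4 of each other list. The 15 highest and lowest of the biallelic regions, those regions, the chromosome 7 neighbourhood and the depth classes were added after the data had been seen. Members and lists were chosen with earlier results of these data known. Replicate numbers did not pair libraries: same-numbered libraries correlated at −0.088 to 0.321, with 2 of 18 pairs above 0.1, and the labels give no shared origin. Results of a few genes are not reported here.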

Additional observations from a re-analysis of the deposited data

Results flagged for a closer look

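Among the genes examined library by library, 7 had every library of 1 group above 50% mus and every library of another below it, each library with at least 10 reads. None of these differences was called by edgeR. Some of the genes examined had been named for a low p between groups. The rule was not applied to all members, so the count of 7 has no background share and is a description only. Inpp5f, a phosphoinositide phosphatase, averaged 52.8% mus in KO at day 10, 42.1% in KO at day 0 (10.7 points lower, adjusted p = 0.87) and 46.8% in WT at day 10 (5.98 points lower, adjusted p = 1). Myo7a, an unconventional myosin of hair cells, averaged 56.5% in KO at day 0 and 29.2% in KO at day 10 (27.3 points, edgeR adjusted p = 0.38). Pdcd6, a calcium-binding protein, averaged 59.2% in KO and 34.5% in WT at day 0 (24.7 points, edgeR adjusted p = 1).

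Col12a1, on the fibroblast marker list, averaged 64.5% in KO at day 0 and 28.6% in KO at day 10 (35.8 points, edgeR adjusted p = 0.42). Kit, the stem cell factor receptor, averaged 55.9% in KO at day 0 and 42.0% in KO at day 10 (14.0 points, edgeR adjusted p = 0.61). Tbx3, a transcription factor of stem cells, averaged 60.1% in WT at day 0 and 46.0% in WT at day 10 (14.1 points, edgeR adjusted p = 0.77). Ldha averaged 48.7% in KO at day 0, 2.41 points below KO at day 10 (edgeR adjusted p = 0.99) and 3.68 points below WT at day 0 (edgeR adjusted p = 1).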

How the results depend on the processing

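Biallelic calls on the mean of the 4 groups (626) were 409 with at least 10 reads in every library, 237 against a log2 of 0.58, 1186 with sizes per allele over the 4 chromosomes, 317 without the 3 deepest libraries and 690 with DESeq2. In WT at day 0 (281) they were 158 against the log2 threshold, 177 with its groups alone and 125 without the deepest. In KO at day 0 (313) they were 150 with replicates 2 and 3 summed, 192 with 10 reads in every library, 175 with the depth term, 192 against the threshold, 502 fitted alone, 490 with sizes per allele and 72 without the deepest. In WT at day 10 (188) they were 124 against the threshold, 379 with sizes per allele, 104 over the biallelic regions alone and 118 without the deepest, and in KO at day 10 (256) 164 and 410 for the first 2. Over all members, 10 reads in every library gave 416, 421, 364 and 415 in the 4 groups and 638 on the mean (1076), where the threshold gave 684 and sizes per allele 1635; KO at day 0 had 413 without the deepest.

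Between lines at day 0 the count of 0 became 1 without replicate 1 of both day 0 groups. It became 3 without KO day 0 replicate 1 and WT day 10 replicate 3, left out together as libraries taken to hold background reads. At day 10 the count of 0 became 1 over the biallelic regions alone. Between days the WT count of 0 became 4 with DESeq2, 5 at 1 read, 17 over the 4 chromosomes, 4 with the depth term, 12 over the biallelic regions, 18 without replicate 1 of both day 0 groups, 3 without KO day 0 replicate 1 and WT day 10 replicate 3, and 2 without the deepest. The KO count became 3, 7, 13, 6, 16, 27, 18 and 3 in that order, and 19 with its groups alone. With a replicate block, though numbers pair no libraries, the day changes gave 5 in WT and 5 in KO and the mean 544 biallelic and 992 member calls.

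Leaving out 1 library at a time gave 0 to 5 calls between lines at day 0 (5 without WT replicate 3), 0 to 0 at day 10, 0 to 12 between days in WT, 0 to 15 in KO and 0 to 1 for the difference of changes. Biallelic calls were then 191 to 297, 135 to 360, 127 to 195 and 182 to 266 in WT and KO at day 0 and WT and KO at day 10, and 496 to 621 on the mean; in KO at day 0 they were 135 without replicate 2 and 148 without replicate 3. Calls over all members were 604 to 751, 587 to 815, 548 to 633, 565 to 676 and 944 to 1071. One-allele members of the biallelic regions (9) were 16 at 90 and 10% and 5 at 500 reads, and runs (31) were 11 at 10 members. With sizes per allele over the 4 chromosomes, a scaling that lowers log2 ratios by 0.40 to 0.56, Ldha turned to −0.41 and Kit to −0.46. The cause of the changes under other settings was not tested. In simulated data 10.5 to 68% of 4-fold and 1.5 to 10.5% of 2-fold differences between groups were recovered, depending on the comparison.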
